A study of Mus musculus with 6 samples.

Results

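The genes described here encode the channels and carriers through which mitochondria trade adenine nucleotides and phosphate with the cytosol. They comprise the 3 voltage-dependent anion channels (VDACs, or porins) Vdac1, Vdac2 and Vdac3, the carriers Slc25a3, Slc25a4 and Slc25a5, and the proteins Tspo and Ppif that are associated with them. These 8 genes were chosen by name and found by matching their symbols to gene IDs, out of 28773 genes in the tables. RNA-seq of splenic CD8+ T cells from female mice was compared between 2 groups of 3 samples, all taken on day 35. The mice of both groups had an implanted tumor that was treated by microwave ablation (MWA). MWA+PBS mice then received injections of PBS, the vehicle, and MWA+2DG mice received 2-deoxy-D-glucose (2DG), a glucose analogue that inhibits glycolysis, with injections ending before the spleens were taken. The labels give no strain, age or tumor line for these samples and do not say whether a sample is 1 mouse or a pool. The CD8+ T cells were obtained with an isolation kit from spleen suspensions, so other spleen cells can be carried along.

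In the outer mitochondrial membrane, VDACs let ATP, ADP, phosphate and other small metabolites pass, and they offer a docking site for hexokinases. In the inner membrane, the adenine nucleotide translocators (ANT1 from Slc25a4, ANT2 from Slc25a5) exchange matrix ATP for cytosolic ADP, while the Slc25a3 product imports the phosphate needed to make ATP. TSPO is an outer membrane protein that binds cholesterol and is abundant in steroid-forming and myeloid cells, and cyclophilin D, from Ppif, is a matrix protein that promotes opening of the permeability transition pore. T cells lean on mitochondrial ATP when they are resting or in a memory state and raise both glycolysis and mitochondrial mass when they are activated.

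Vdac1, Slc25a5 and Tspo were lower in MWA+2DG than in MWA+PBS, whereas Vdac2, Vdac3, Slc25a3, Slc25a4 and Ppif did not pass the test. The decrease was 28% for Vdac1, 21.9% for Tspo and 16.5% for Slc25a5, as the change of the mean FPKM (fragments scaled by transcript length and library size). Within both paralog families, 1 gene was called lower and its closest relatives were not called. The shares of Vdac1 among the porins and of Slc25a5 among the translocators did not overlap between the groups. These shares rest on the same values as the calls, and no background over other gene families was computed for them. The test was limma on log2(FPKM + 1), with a Benjamini-Hochberg adjusted p under 0.05 over the 12444 genes whose mean FPKM reached 1, which include 8 of the 8 genes. By limma, 3 genes were called lower and 0 higher, and the counts at an unadjusted p under 0.05 were also 3 and 0. Of all tested genes, 17.1% were called lower, 22.3% higher and 39.4% in either direction, so the share of called genes among the porins and carriers was near that of all genes. The rule in the study's methods was read here as an unadjusted P under 0.05 and a log2 fold change past 0.25 in size. By that rule 3 genes were also called, beside 38.2% of all tested genes. The groups did not overlap for 3 of the 8 genes, beside 52.1% of all tested genes. The median log2 fold change was -0.02 over the 8 genes and 0.05 over all tested genes. The labels do not tell whether replicates came from separate mice, so p-values measure only the spread between these samples.

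Across the samples, FPKM totals lay between 291803 and 313257, mitochondrially encoded genes held 21.4% to 22.8% of the FPKM in MWA+PBS against 19.4% to 20.7% in MWA+2DG, and the read depth is unknown. The CD8 coreceptor gene Cd8a was 231.5 ± 6.96 FPKM (SD, n = 3) in MWA+PBS against 366.4 ± 9.48 FPKM in MWA+2DG. The CD3 subunit gene Cd3e was 97.3 ± 7.98 and 127.0 ± 13.2 FPKM. Markers of other cells were present in both groups and moved with the treatment. In bulk samples, fewer cells of a type and less RNA per cell cannot be told apart. No batch is recorded in the labels, and the treatment and any batch aligned with it cannot be told apart. FPKM values are relative to the library total, and scaling to 15 T cell genes instead lowered every log2 fold change by 0.49, moving the median of all tested genes from 0.05 to -0.45. Under that scaling the 8 genes were all called lower, beside 74.9% of all tested genes. Relative to the median of all genes their changes were as before, -0.50 for Vdac1, -0.39 for Tspo, -0.30 for Slc25a5 and between -0.09 and 0.08 for the other 5. Directions given below are those relative to the library total, and every increase under 0.49 on the log2 scale becomes a decrease under the T cell scaling.

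**Figure D1:**
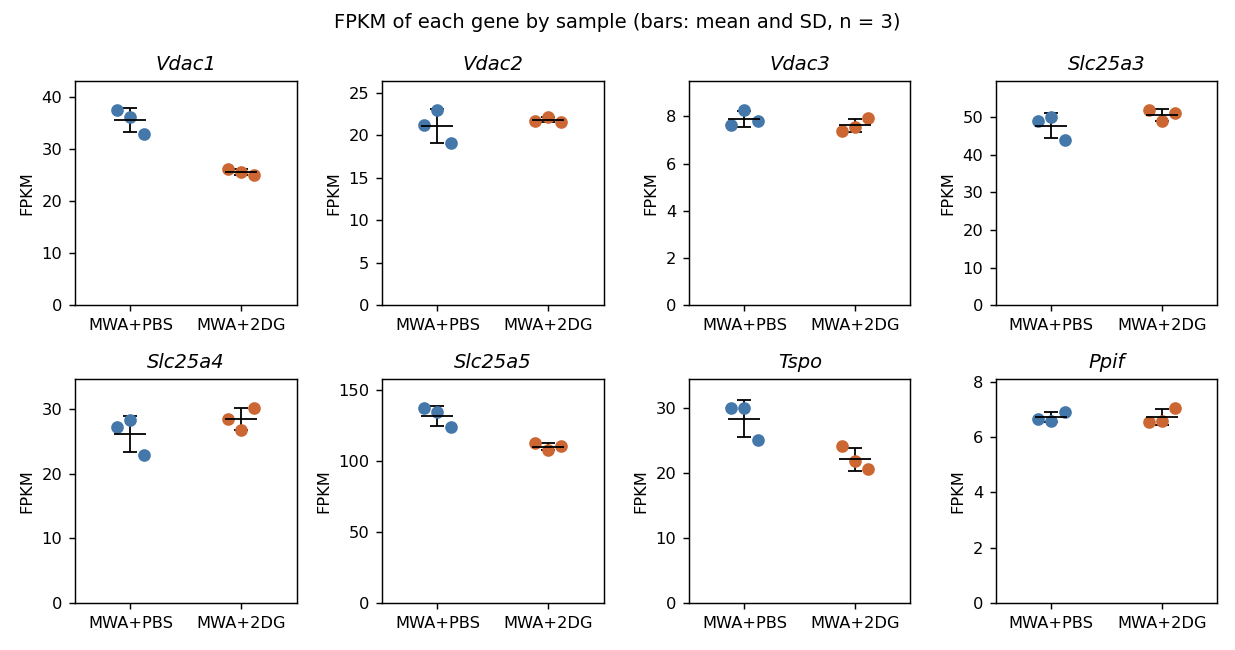
FPKM of each gene in the 3 MWA+PBS and 3 MWA+2DG samples (points are samples, bars are the group mean and SD). The groups are separate for Vdac1, Slc25a5 and Tspo and overlap for the other 5 genes.

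The levels of the 8 genes, which FPKM gives per length of transcript, spanned a wide range. Slc25a5 was the highest, between ranks 218 and 288 of all genes in a sample, and Slc25a3 followed, between ranks 677 and 811. Vdac3 and Ppif were the lowest, between ranks 5278 and 6290. In MWA+PBS the order from high to low was Slc25a5, Slc25a3, Vdac1, Tspo, Slc25a4, Vdac2, Vdac3 and Ppif. In that order the ranges of Tspo and Slc25a4 overlapped, and so did those of Slc25a4 and Vdac2. Within each MWA+PBS sample, however, Tspo stood above Slc25a4 and Slc25a4 above Vdac2. In MWA+2DG, Slc25a4 stood above Vdac1 and Tspo without overlap, and the samples of Tspo overlapped those of Vdac2. The other neighbours were separate in both groups.

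Among the porins, Vdac1 was the most abundant in MWA+PBS and the one that fell. VDAC1 is the most studied isoform and the main partner of hexokinases at the outer membrane. Vdac1 (ENSMUSG00000020402) was 37.41, 36.17 and 32.92 FPKM in the MWA+PBS samples and 26.06, 25.57 and 25.05 FPKM in the MWA+2DG samples. The lowest MWA+PBS sample lay above the highest MWA+2DG sample, and the MWA+2DG samples were close to each other. The means were 35.5 ± 2.32 and 25.6 ± 0.505 FPKM (SD, n = 3 each), a change of -0.46 ± 0.06 on the log2 scale (SE, limma adjusted p = 0.000947), with a 95% interval from -0.60 to -0.32. Of all tested genes, 10.5% had a lower log2 fold change than Vdac1.

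Vdac2, whose product is known for holding the apoptosis effector BAK at the outer membrane, was nearly level between the group means. Vdac2 (ENSMUSG00000021771) was 21.28, 22.96 and 19.07 FPKM in MWA+PBS against 21.75, 22.22 and 21.61 FPKM in MWA+2DG. The MWA+2DG samples all fell inside the range of the MWA+PBS samples. The log2 fold change was 0.05 ± 0.07 (SE, limma adjusted p = 0.596), with a 95% interval from -0.11 to 0.22 that does not reach the change of Vdac1. An exon of Vdac2 overlaps one of Comtd1 on the opposite strand, and Comtd1 was 0.983 ± 0.0815 FPKM in MWA+PBS against 1.21 ± 0.301 FPKM in MWA+2DG, far under Vdac2.

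Vdac3, the third porin, was the lowest of the family. Vdac3 (ENSMUSG00000008892) was 7.62, 8.26 and 7.79 FPKM in MWA+PBS against 7.39, 7.55 and 7.92 FPKM in MWA+2DG, with overlapping groups. The log2 fold change was -0.04 ± 0.06 (SE, limma adjusted p = 0.592), with a 95% interval from -0.18 to 0.10. Its level is uncertain because of a near-identical processed copy, Vdac3-ps1, which matched the Vdac3 coding sequence at 845 of 849 aligned bases (99.5%). The first 60 coding bases of Vdac3 and the matching stretch of Vdac3-ps1, from GENCODE M21, are shown to make clear how little separates the copies, with the mismatch in capitals:
Vdac3: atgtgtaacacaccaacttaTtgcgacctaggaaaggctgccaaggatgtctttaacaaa
Vdac3-ps1: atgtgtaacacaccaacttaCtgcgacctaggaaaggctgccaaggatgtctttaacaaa
Within this stretch the copies differ at that base only. Vdac3-ps1 was listed at 6.96 ± 0.249 FPKM in MWA+PBS against 6.87 ± 0.583 FPKM in MWA+2DG, close to Vdac3 itself. Whether the quantification split reads of 1 source between them was not tested. Summing the FPKM of Vdac3 and that copy gave 14.85 ± 0.216 in MWA+PBS and 14.5 ± 0.420 in MWA+2DG. Their transcripts differ in length, 1423 bases for Vdac3 and 853 for the copy, so this sum is not the level of 1 transcript. With all near-identical copies summed, the log2 fold change of Vdac3 was -0.03 (limma adjusted p = 0.665). Other copies were low beside their parents, at most 1.62 FPKM as a group mean (Gm5529, a copy of Slc25a5).

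The summed porin level was lower and less weighted to Vdac1 in MWA+2DG. The summed FPKM of the 3 porins was 66.3, 67.4 and 59.8 in MWA+PBS against 55.2, 55.3 and 54.6 in MWA+2DG, without overlap. Vdac1 made up 55.1% ± 1.37 (SD, n = 3) of that sum in MWA+PBS against 46.4% ± 0.687 in MWA+2DG. The share of Vdac2 was 32.7% ± 1.20 and 39.7% ± 0.390, and that of Vdac3 12.3% ± 0.770 and 13.85% ± 0.589. With the FPKM of Vdac3-ps1 added to that of Vdac3, uncorrected for length, the share of Vdac1 was 49.7% ± 1.075 and 41.3% ± 0.605. A ratio of genes within a sample does not depend on the library scaling, so the ratios were compared as well. The log2 ratio of Vdac1 to Vdac2 was 0.75 ± 0.08 in MWA+PBS against 0.23 ± 0.03 in MWA+2DG, a difference of -0.53 with separate groups (two-sided exact permutation p = 0.1, 0.133 after adjustment over the 4 ratios tested). Against Vdac3 the log2 ratio of Vdac1 was 2.17 ± 0.11 and 1.75 ± 0.08, also without overlap (exact permutation p = 0.1, adjusted 0.133). The log2 ratio of Vdac2 to Vdac3 was 1.42 in MWA+PBS against 1.52 in MWA+2DG with overlapping groups (exact permutation p = 0.3). The smallest p that 3 samples against 3 allow in this test is 0.1. The coding sequences of the porins were 67.5% to 72.7% identical to each other.

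**Figure D2:**
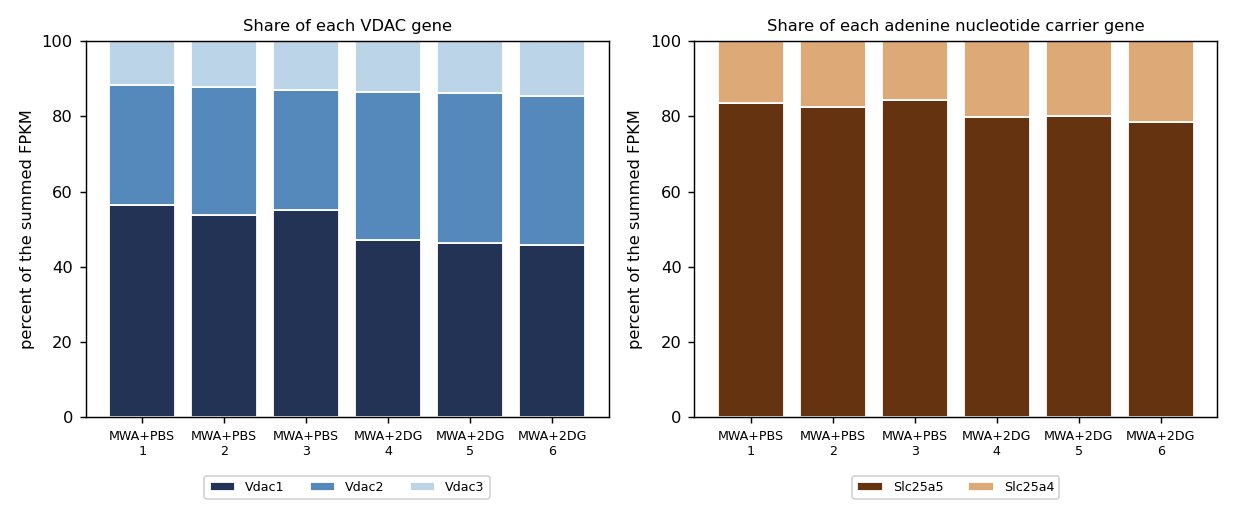
Share of each paralog in the summed FPKM of its family, in percent, for the porins and for the adenine nucleotide translocators in each of the 6 samples. Vdac1 holds 53.7% to 56.4% of the porin sum in MWA+PBS against 45.9% to 47.2% in MWA+2DG, and Slc25a4 holds 15.6% to 17.3% and 19.9% to 21.5% of the translocator sum.

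Of the adenine nucleotide translocators, Slc25a5 (ANT2), the isoform of proliferating cells, was by far the more abundant and the one that fell. Slc25a5 (ENSMUSG00000016319) was 137.4, 134.6 and 123.8 FPKM in MWA+PBS against 112.4, 107.7 and 110.3 FPKM in MWA+2DG. The groups did not overlap, and the gap between them was smaller than the range within MWA+PBS. The means were 131.9 ± 7.17 and 110.1 ± 2.37 FPKM (SD, n = 3 each), a change of -0.26 ± 0.06 on the log2 scale (SE, limma adjusted p = 0.0102), with a 95% interval from -0.39 to -0.12. A lower log2 fold change was found in 17.9% of all tested genes.

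Slc25a4 (ANT1), the isoform of heart and skeletal muscle, was not called. Slc25a4 (ENSMUSG00000031633) was 27.15, 28.23 and 22.91 FPKM in MWA+PBS against 28.48, 26.70 and 30.14 FPKM in MWA+2DG. The MWA+2DG sample at 26.70 lay below both higher MWA+PBS samples. The log2 fold change was 0.12 ± 0.09 (SE, limma adjusted p = 0.296), with a 95% interval from -0.08 to 0.33. The share of Slc25a4 in the sum of both translocators was 16.5% ± 0.862 (SD, n = 3) in MWA+PBS against 20.5% ± 0.841 in MWA+2DG. The sum itself was 158.0 ± 9.83 and 138.6 ± 3.63 FPKM. The log2 ratio of Slc25a5 to Slc25a4 was 2.34 ± 0.09 in MWA+PBS against 1.955 ± 0.07 in MWA+2DG, a difference of -0.39 without overlap (two-sided exact permutation p = 0.1, adjusted 0.133). Their coding sequences matched at 692 of 894 bases (77.4%).

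Slc25a3, the phosphate carrier, belongs to the same carrier family. Slc25a3 (ENSMUSG00000061904) was 49.13, 50.14 and 43.89 FPKM in MWA+PBS against 51.86, 48.91 and 51.12 FPKM in MWA+2DG. The groups overlapped, with MWA+PBS replicate 3 the lowest of all samples. The log2 fold change was 0.09 ± 0.06 (SE, limma adjusted p = 0.3245), with a 95% interval from -0.06 to 0.23. MWA+PBS replicate 3 was the lowest sample of its group for Vdac1, Vdac2, Slc25a3, Slc25a4, Slc25a5 and Tspo, but not for Vdac3 or Ppif.

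Tspo, the cholesterol-binding protein of the outer membrane, was lower in MWA+2DG. Tspo (ENSMUSG00000041736) was 30.03, 30.06 and 25.15 FPKM in MWA+PBS against 24.12, 21.82 and 20.63 FPKM in MWA+2DG. MWA+PBS replicate 3 stood apart from the other samples of its group and came close to the highest MWA+2DG sample, but the groups did not overlap. The means were 28.4 ± 2.83 and 22.2 ± 1.77 FPKM (SD, n = 3 each), a change of -0.34 ± 0.09 on the log2 scale (SE, limma adjusted p = 0.0189), with a 95% interval from -0.55 to -0.13. The call was lost without MWA+PBS replicate 1, at -0.30 (limma adjusted p = 0.0672), without MWA+2DG replicate 5, at -0.33 (limma adjusted p = 0.0548), and without MWA+2DG replicate 6, at -0.29 (limma adjusted p = 0.0667). It was also lost without the filter on low values (limma adjusted p = 0.0587). Tspo shares exon sequence with Mcat on the opposite strand, which was 2.97 ± 0.322 and 3.46 ± 0.149 FPKM with overlapping groups (limma adjusted p = 0.145). Its part in the Tspo values was not tested. The sources used here do not say whether strand entered the quantification.

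Myeloid and other markers moved beside Tspo. Of the 15 tested monocyte and macrophage genes, 14 were lower and 1 higher, and the summed FPKM of all 16 listed was 1029 to 1099 in MWA+PBS against 334 to 371 in MWA+2DG. The one that was higher, at 170.8 and 227.2 FPKM, was Lyz2, a lysozyme of myeloid cells and the highest of the list by its mean over all samples. Of 15 neutrophil genes, 11 were higher and 3 lower, with sums of 370 to 409 and 1647 to 1829, and the granule gene Ngp went from 26.8 to 613.9 FPKM. Of 12 B cell genes 11 were higher, while the highest, the immunoglobulin heavy chain Ighm, fell from 877.2 to 393.8 FPKM, and the sums were 842 to 926 and 456 to 501. Of 10 tested erythroid genes 9 were lower, with sums over 11 genes of 326 to 382 and 92.0 to 110.2, and haemoglobin Hba-a1 went from 103.2 to 22.2 FPKM. All 15 T cell genes were higher, with sums of 1926 to 2099 and 2786 to 3002. No gene of these lists was at 0 in every sample. The part of these cells in the values of Tspo or of any other gene described here was not tested.

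Ppif, cyclophilin D, was the gene with the smallest difference. Ppif (ENSMUSG00000021868) was 6.66, 6.58 and 6.92 FPKM in MWA+PBS against 6.54, 6.58 and 7.05 FPKM in MWA+2DG, so that the ranges nearly coincided. The mean was 6.72 FPKM in both groups, with SDs of 0.178 and 0.284. The 95% interval of the log2 fold change ran from -0.14 to 0.14 (limma adjusted p = 0.997). Ppif shares exon sequence with Ppifos on the opposite strand, for which no value was used here.

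**Figure D3:**
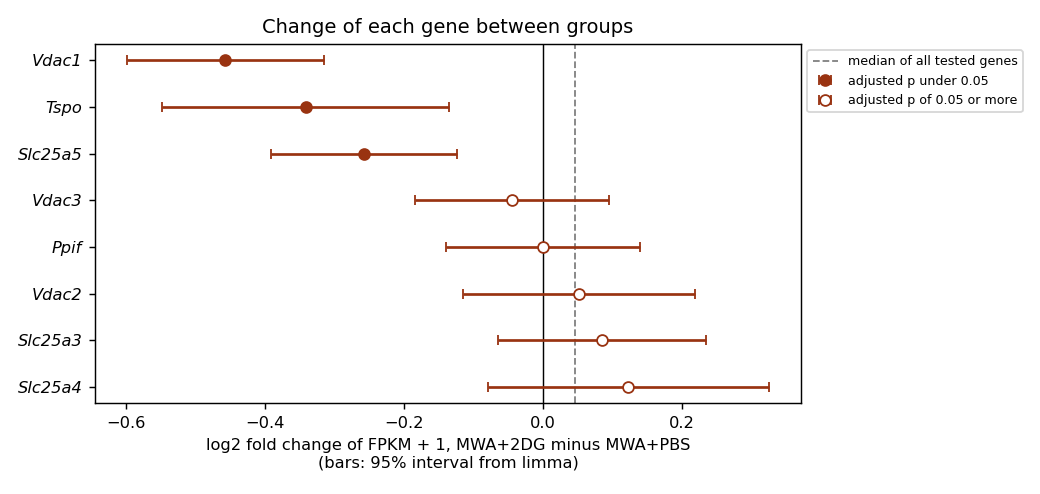
Log2 fold change of FPKM + 1, MWA+2DG minus MWA+PBS, with the 95% interval from limma for each gene (filled points, adjusted p under 0.05; dashed line, median of all tested genes at 0.05). The intervals of Vdac1, Tspo and Slc25a5 lie below 0 and those of the other 5 include 0, relative to the library total; T cell scaling moves all points by -0.49.

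The promoters of Vdac1 and of both translocator genes are shown because Vdac1 and Slc25a5 were called lower and Slc25a4, the paralog of Slc25a5, was not called. Each window runs from 250 bases before to 50 after the transcription start, 5′ to 3′ on the strand of the gene, from RefSeq on GRCm38.p6. Windows were given for 5 of the 8 genes. Capitals mark matches, on either strand, to the motifs of nuclear regulators of mitochondrial genes, of which the GABP motif CCGGAAG was the one found in these windows. The Vdac1 window is chr11:52360601-52360900 (plus strand), the Slc25a5 window chrX:36795347-36795646 (plus strand) and the Slc25a4 window chr8:46211013-46211312 (minus strand).
Vdac1: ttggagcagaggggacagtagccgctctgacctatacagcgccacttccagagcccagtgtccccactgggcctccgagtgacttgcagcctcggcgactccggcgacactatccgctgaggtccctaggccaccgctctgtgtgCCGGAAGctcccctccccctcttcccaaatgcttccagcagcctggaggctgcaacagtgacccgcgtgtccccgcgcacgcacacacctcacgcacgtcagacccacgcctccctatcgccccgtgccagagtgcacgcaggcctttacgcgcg
Slc25a5: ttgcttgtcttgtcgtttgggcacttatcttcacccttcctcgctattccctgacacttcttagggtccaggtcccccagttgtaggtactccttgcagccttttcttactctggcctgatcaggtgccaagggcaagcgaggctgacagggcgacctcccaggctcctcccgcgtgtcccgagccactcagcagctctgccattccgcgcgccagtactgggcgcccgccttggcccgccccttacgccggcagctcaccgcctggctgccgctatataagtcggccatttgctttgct
Slc25a4: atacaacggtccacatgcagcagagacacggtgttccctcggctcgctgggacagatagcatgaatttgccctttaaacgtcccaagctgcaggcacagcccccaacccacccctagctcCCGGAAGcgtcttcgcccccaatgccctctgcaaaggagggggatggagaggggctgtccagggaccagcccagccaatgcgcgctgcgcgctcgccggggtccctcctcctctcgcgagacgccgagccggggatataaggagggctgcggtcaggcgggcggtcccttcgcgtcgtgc
The GABP motif stood at base 146 of the Vdac1 window and base 121 of the Slc25a4 window, and Slc25a5 had no match. Of 32851 windows of all genes, 8.86% held this motif. Slc25a3 and Ppif each had a GABP match, and Slc25a3 also had the NRF1 motif GCGCANGCG, which 6.25% of windows held. The window at a second start of Vdac1 had neither motif. The ERR motif TNAAGGTCA (1.28% of windows) and the E-box CACGTG (7.15%) were in none of the windows of these 5 genes. The GC box GGGCGG, held by 35.7% of windows, was found once each in Slc25a5, Slc25a4, Slc25a3 and Ppif and 3 times at the second start of Vdac1, and CCAAT, held by 37.4%, was found 2 times in Slc25a4 and once in Ppif. The G and C content of the printed windows was 66.0% for Vdac1, 61.0% for Slc25a5 and 65.7% for Slc25a4, beside a median of 52.7% over all windows. A match is a run of letters and no measure of binding.

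Genes that work with the porins and carriers were compared next, by lists. Their log2 fold changes are of FPKM + 1, so for low genes they understate the ratio of the FPKM values printed beside them. Their counts stand beside the 22.3% of all tested genes called higher, the 17.1% called lower and the median log2 fold change of 0.05 over all tested genes, and nothing is read as particular to a list. Hexokinase 2, which docks on VDAC1, was lower: Hk2 went from 3.26 ± 0.125 to 1.84 ± 0.252 FPKM (SD, n = 3), a change of -0.59 on the log2 scale (limma adjusted p = 0.00189). Ckb, the cytosolic brain-type creatine kinase, fell from 5.99 ± 0.412 to 1.55 ± 0.178 FPKM, a change of -1.455 on the log2 scale (limma adjusted p = 1.705e-05). Of the 7 tested kinases that bind VDAC or exchange adenine nucleotides, 3 were lower and 0 higher by limma, with a median log2 fold change of -0.15. The third was Hk3, a hexokinase of myeloid cells, at -0.22 (limma adjusted p = 0.0395), which was named after its values were seen. Hk1, another hexokinase, also named after its values were seen, was 21.7 and 22.3 FPKM, with a change of 0.04 on the log2 scale (limma adjusted p = 0.694).

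Of the 36 other SLC25 carriers tested, 8 were higher, 7 lower and 21 not called, with a median log2 fold change of -0.01, near the shares of all tested genes. The largest increases were in Slc25a40, a close relative of the glutathione carrier Slc25a39, from 2.13 to 4.54 FPKM (log2 fold change 0.83, limma adjusted p = 0.000266), and in Slc25a36, a pyrimidine nucleotide carrier, from 8.62 to 13.0 FPKM (0.54, limma adjusted p = 0.0015). The largest decreases were in Slc25a13, the aspartate and glutamate carrier citrin, from 2.14 to 0.840 FPKM (-0.77, limma adjusted p = 0.000798), and in Slc25a39 itself, from 11.4 to 7.92 FPKM (-0.48, limma adjusted p = 0.00311).

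Of 17 tested ATP synthase genes, which use the ADP and phosphate that these carriers bring in, 4 were lower and 1 higher, with a median of -0.02. Atp5b, the catalytic beta subunit, fell from 112.9 to 97.4 FPKM (log2 fold change -0.21, limma adjusted p = 0.0373), and Atp5j, a stalk subunit, was 8.50 and 11.0 FPKM (0.34, limma adjusted p = 0.01765). The largest decrease of the list was in Atpif1, which is not a subunit but an inhibitor of the enzyme, from 8.88 to 6.18 FPKM (-0.46, limma adjusted p = 0.0207). The other lower genes, Atp5a1 at -0.17 (limma adjusted p = 0.03445) and Atp5o at -0.19 (limma adjusted p = 0.02115), were named after their values were seen.

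In the calcium uniporter complex, which takes up calcium that has crossed the porins, 2 of 6 tested genes were higher and 1 lower, with a median of 0.05. Mcub, a subunit that dampens the channel, fell from 3.02 to 1.48 FPKM (log2 fold change -0.70, limma adjusted p = 0.00273). The regulators Micu3, from 0.957 to 1.79 FPKM (0.52, limma adjusted p = 0.0186), and Micu2, from 13.9 to 16.75 FPKM (0.25, limma adjusted p = 0.01055), were higher. Of 13 genes of outer membrane import and insertion, the machinery that places porins in the membrane, 3 were higher and 1 lower, with a median of 0.01. The metaxin Mtx3 rose from 2.57 to 5.35 FPKM (0.83, limma adjusted p = 0.000114) and Tomm40l from 2.86 to 3.91 FPKM (0.35, limma adjusted p = 0.0109). Tomm5, a small subunit of the import pore, fell from 14.2 to 12.25 FPKM (-0.20, limma adjusted p = 0.0347), and Tomm20, an import receptor named after its values were seen, was at 0.21 (limma adjusted p = 0.0201).

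Of 7 tested TSPO partners and acyl-CoA binding proteins, 2 were lower and 1 higher, with a median of -0.16. Acbd3, a Golgi protein that has been found with TSPO, was at -0.24 (limma adjusted p = 0.0207), Fech, the last enzyme of heme synthesis, at -0.25 (limma adjusted p = 0.0386), and Star, the cholesterol transport protein of steroid-forming cells, at 0.31 (limma adjusted p = 0.0421). The cyclophilins other than Ppif had 5 of 13 tested genes higher and 1 lower, with a median of 0.13. Nktr rose from 13.5 to 18.8 FPKM (0.45, limma adjusted p = 0.000534) and the splicing-associated Ppil3 from 3.35 to 4.87 FPKM (0.44, limma adjusted p = 0.0141), while Ppil1, also of the spliceosome, fell from 5.27 to 3.64 FPKM (-0.43, limma adjusted p = 0.0122). Ppid, Ppic and Ppil2, named after their values were seen, were at 0.35, 0.35 and 0.30. Ppia, the abundant cytosolic cyclophilin A, likewise named after its values were seen, was 141.8 ± 14.8 and 147.4 ± 13.7 FPKM (SD, n = 3; 0.06, limma adjusted p = 0.677).

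Of 11 tested regulators of mitochondrial biogenesis, 3 were higher and 2 lower, with a median of 0.04, also near the shares of all tested genes. The coactivator Ppargc1b fell from 7.22 to 4.38 FPKM (log2 fold change -0.61, limma adjusted p = 0.000447), and Nrf1, the factor that binds the NRF1 motif, from 4.26 to 3.30 FPKM (-0.29, limma adjusted p = 0.0197). Myc was 60.3 and 72.7 FPKM (0.27, limma adjusted p = 0.0114), Tfb2m, a factor of mitochondrial transcription, 9.25 and 11.4 FPKM (0.27, limma adjusted p = 0.0281), and Tfam, named after its values were seen, 8.80 and 10.75 FPKM (0.26, limma adjusted p = 0.0162).

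Proliferation genes were lower nearly throughout. Of 29 tested, 26 were lower and 0 higher by limma, with a median log2 fold change of -0.73, and their summed FPKM was 672 to 706 in MWA+PBS against 513 to 517 in MWA+2DG. Aurkb, a mitotic kinase, fell from 6.85 to 2.78 FPKM (-1.05, limma adjusted p = 0.000204), and Tpx2, a spindle factor, from 9.25 to 4.16 FPKM (-0.99, limma adjusted p = 0.000164). The part of proliferation in the values of the 8 genes was not tested.

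**Figure D4:**
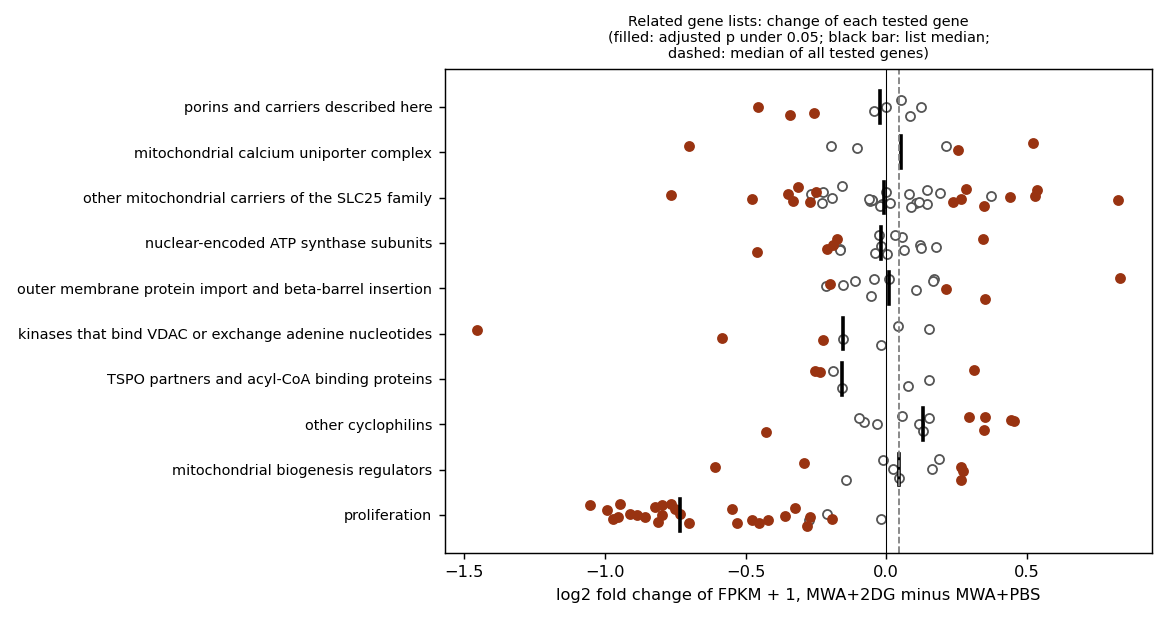
Log2 fold change, MWA+2DG minus MWA+PBS relative to the library total, of each tested gene in the lists around the porins and carriers (filled, adjusted p under 0.05; black bar, list median; dashed line, median of all tested genes). Medians lie between -0.16 and 0.13 except for proliferation at -0.73; T cell scaling moves every point by -0.49.

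Over the 6 samples, the tested genes whose log2(FPKM + 1) was most like that of Vdac1 by Pearson's r were the immunoglobulin gene Iglv2 (0.998), Ptma (0.997) and Lrp8 (0.996). For Slc25a5 they were Laptm4b (0.997), Ran (0.995) and Ssh3 (0.993), and for Tspo Smim5 (0.996), Anp32b (0.9945) and Ranbp1 (0.992). The samples share the 2 groups and the scaling by library total, so genes lower in MWA+2DG correlate with each other whatever their function, and these values are a description over 6 points.

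**Figure D5:**
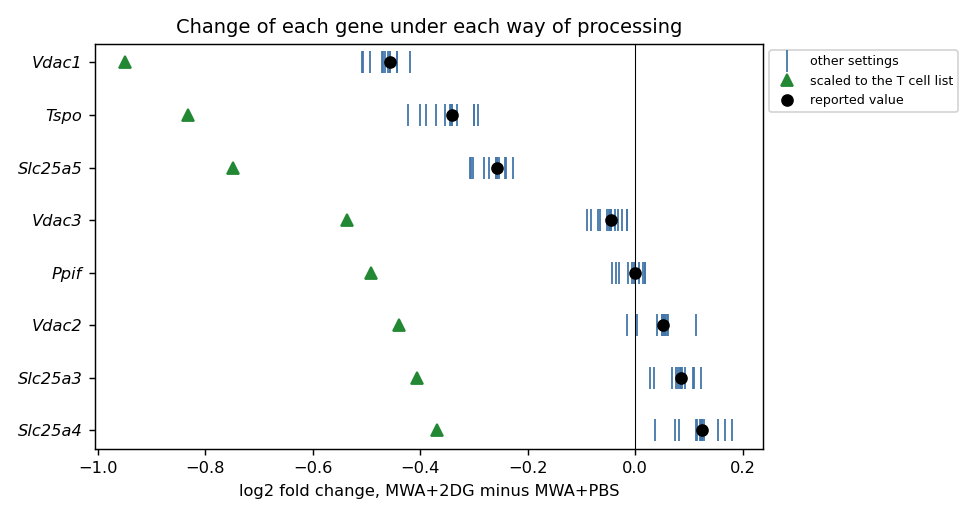
Log2 fold change of each gene, MWA+2DG minus MWA+PBS, under each way of processing the values (circles, as reported; triangles, scaled to T cell genes; ticks, the other settings). Vdac1, Slc25a5 and Tspo stay below 0 in all of them, while Vdac2 and Ppif cross 0 and Slc25a3 and Slc25a4 are below 0 only with the scaling to T cell genes.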

How the data were processed

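Poly(A) RNA of 6 splenic CD8+ T cell samples was sequenced. The authors used HISAT2 for mapping, StringTie for assembly, and StringTie with ballgown for the deposited FPKM values, and the methods also name fastp and limma. The submitters' processing notes list cutadapt 1.9, HISAT2 2.0.4, UMI-tools and StringTie 1.3.4d, with mm9, although gene IDs of later annotations are present, so no coordinates were taken from the tables. FPKM holds no counts, so depth is unknown and counting intervals cannot be given. A transcript that takes a larger share of a library lowers the FPKM of the others.

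Symbols came from GENCODE M21, with 84 IDs unmatched. log2(FPKM + 1) of genes with a mean FPKM of at least 1 was fitted with limma 3.58.1 in R 4.3.3 (trended eBayes, no covariates, two-sided test of MWA+2DG against MWA+PBS), and this scale understates changes of low genes. Ratios were compared by exact permutation. Copies were sought with BLAST 2.17.0 at 95% identity over at least 200 bases. On simulated data for this comparison (12444 genes, 200 of them changed), 59% of changes of 0.5 and 88% of changes of 1 on the log2 scale were recovered, and 0.0653% of unchanged genes were called. In the data 39.4% of tested genes were called, a far larger share than was changed in the simulation, so these rates may not carry over.

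The 8 genes and the lists of related genes and cell markers were chosen with earlier results of these data known. Named from each related list were the 2 largest increases and 2 largest decreases among called genes, with Cd8a and Cd3e, the highest gene of each marker list of other cell types, pseudogene copies named after the 8 genes, and for each called gene the 3 genes most like it. Further genes are marked as named after their values were seen, apart from near-identical copies and overlapping genes of the 8. The ATP synthase list held older and newer symbols of the same genes. Alternatives were a pseudocount of 0.1, no filter or a mean FPKM of at least 5, quantile, median of ratios and T cell scaling, scaling that leaves out ribosomal protein, mitochondrial, haemoglobin and immunoglobulin genes, other limma settings, leaving out each sample and, chosen after seeing the data, summing near-identical copies.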

Additional observations from a re-analysis of the deposited data

How the results depend on the processing

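No paired analysis was possible because the groups share no replicate numbers, which are 1 to 3 for MWA+PBS and 4 to 6 for MWA+2DG. Vdac1 was called lower under every alternative run, and so was Slc25a5, with limma adjusted p up to 0.0232 apart from the left-out samples. Tspo lost its call without the filter on low values (limma adjusted p = 0.0587). Its log2 fold change was the same there, -0.34, and the fit covered 28773 genes. Which part of the wider fit raised the p-value was not tested. Leaving out each sample gave -0.51 to -0.42 for Vdac1, -0.30 to -0.23 for Slc25a5 (limma adjusted p 0.0081 to 0.0467), -0.42 to -0.29 for Tspo (0.007 to 0.0672), -0.0155 to 0.112 for Vdac2, negative only without MWA+PBS replicate 3, and -0.0300 to 0.0188 for Ppif. Ppif was also negative with quantile normalization (-0.0356), median of ratios scaling (-0.0442) and scaling that leaves out ribosomal protein, mitochondrial, haemoglobin and immunoglobulin genes (-0.0026), and the cause was not tested. Scaling to T cell genes, which lowers all genes alike, gave -0.44 for Vdac2, -0.41 for Slc25a3, -0.37 for Slc25a4, -0.49 for Ppif and a call of Vdac3 at -0.54, so that 8 of the 8 genes were called. It took the genes called from 4907, 56.5% of them higher, to 9685, 3.76% higher, and by the methods rule from 4752 to 9301, 3.34% higher. With a mean FPKM of at least 5, where 7313 genes were tested, the counts were 2951 and 2562. Leaving out each sample gave 3706 to 5195 and 4544 to 5069 genes, and 2 to 3 of the 8 genes.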
